A study of Mus musculus with 6 samples.

Results

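The PGC-1 coactivators, their nuclear partners, the corepressor Nrip1 and the nuclear-encoded factors that transcribe mitochondrial DNA were examined in white adipose tissue of cold-exposed mice with and without the transcription factor YY1 in adipocytes. The 10 genes were Ppargc1a, Ppargc1b, Nrip1, Esrra, Ppara, Nrf1, Gabpa, Tfam, Tfb1m and Tfb2m. Every probe set whose only annotated gene was one of them was used, whatever its brightness, which gave 10 of 12393 genes and 19 of 20380 probe sets with a single gene symbol. PGC-1 proteins bind no DNA themselves. They attach to nuclear receptors such as ERRα and PPARα and to the nuclear respiratory factors NRF1 and GABP, and raise the transcription of genes for mitochondrial proteins. Among these are TFAM, TFB1M and TFB2M, which are imported into the mitochondrion. In brown and beige fat, cold acts through cyclic AMP to induce Ppargc1a, while Nrip1, also called RIP140, holds oxidative genes down in white adipocytes. In muscle cells YY1 is known to bind PGC-1α at mitochondrial genes, so these regulators are themselves of interest where YY1 is removed.

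YY1aKO mice carried both Yy1 alleles flanked by recombination sites and an Adiponectin Cre transgene, which expresses the recombinase Cre in adipocytes. Control mice carried the flanked alleles and no Cre. All were 8 weeks old, on a mixed background of C57BL6 and 129, and had spent 4 days in the cold at 4 °C. RNA of 3 YY1aKO and 3 control samples was hybridised to 1-colour Affymetrix arrays, 1 array per sample. The labels do not say whether each sample came from its own animal, so p-values measure only the spread between samples, and the number of arrays limits every value. The labels name the depot in more than one way, with a tissue field that says visceral, titles that start with EWAT, and a series title and sample descriptions that say subcutaneous. They also differ on where YY1 was deleted, since the series title restricts the deficiency to brown fat, whereas the genotype field calls the knockout adipose-specific and the design text gives Adiponectin Cre. The groups differ in Cre as well as in Yy1, and these cannot be told apart. In whole tissue fewer cells of a type cannot be told apart from less RNA per cell.

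The bases just upstream of a listed transcription start are shown for the most changed members, Ppargc1a and Nrip1, and, for contrast, for Tfam and Gabpa, whose probe sets did not pass the test. Sequences are from RefSeq, build GRCm38.p6, 5′ to 3′ in the direction of the gene, and run over the 250 bases that end just before the start. Ppargc1a lies on chromosome 5 (51454249 to 52115853), Nrip1 on chromosome 16 (76287403 to 76373827), Tfam on chromosome 10 (71225468 to 71238328) and Gabpa on chromosome 16 (84834891 to 84863783). The windows are chr5:51567726-51567975 (minus strand), chr16:76373828-76374077 (minus strand, the first of 2 starts listed), chr10:71238045-71238294 (minus strand) and chr16:84834874-84835123 (plus strand). The Ppargc1a window lies well inside the gene's span, which on the minus strand begins at 52115853. It therefore belongs to an internal start, and the upstream end of the gene was not searched. The Tfam window also lies inside its gene's span, which on the minus strand begins at 71238328. Most of the Gabpa window lies inside its gene's span too, which on the plus strand begins at 84834891. Capitals mark matches on either strand to any of 6 searched motifs.
Ppargc1a: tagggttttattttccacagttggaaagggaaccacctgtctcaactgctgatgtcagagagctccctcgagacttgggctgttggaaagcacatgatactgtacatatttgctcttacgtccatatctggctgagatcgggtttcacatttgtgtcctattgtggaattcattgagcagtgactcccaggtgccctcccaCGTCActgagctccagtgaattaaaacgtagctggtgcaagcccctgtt
Nrip1: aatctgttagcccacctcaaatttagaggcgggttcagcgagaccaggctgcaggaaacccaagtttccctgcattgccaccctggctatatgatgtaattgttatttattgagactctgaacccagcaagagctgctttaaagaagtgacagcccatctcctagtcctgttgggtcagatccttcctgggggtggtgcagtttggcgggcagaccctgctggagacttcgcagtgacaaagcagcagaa
Tfam: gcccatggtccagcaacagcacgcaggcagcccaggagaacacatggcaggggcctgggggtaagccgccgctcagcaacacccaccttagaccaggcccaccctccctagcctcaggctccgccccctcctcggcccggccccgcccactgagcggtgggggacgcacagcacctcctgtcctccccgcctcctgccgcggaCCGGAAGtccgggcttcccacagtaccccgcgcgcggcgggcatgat
Gabpa: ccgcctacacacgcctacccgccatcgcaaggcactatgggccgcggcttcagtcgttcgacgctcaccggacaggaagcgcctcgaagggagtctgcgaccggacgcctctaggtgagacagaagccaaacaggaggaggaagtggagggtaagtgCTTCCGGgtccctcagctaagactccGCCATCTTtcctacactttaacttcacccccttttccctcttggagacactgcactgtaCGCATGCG
The motifs were AANATGGC for YY1, TGACGTCA for the cyclic AMP response element (CRE), its shorter core TGACG, which lies inside it, TNAAGGTCA for ERR, CGCANGCG for NRF1 and CCGGAAG for the ETS family that includes GABP. Of 32851 RefSeq promoter windows of this length, 3.91% held the YY1 motif, 1.55% the full CRE, 17.8% its core, 1.14% the ERR motif, 6.76% the NRF1 motif and 6.91% the ETS motif. The Ppargc1a window held 1 CRE core, 49 to 45 bases before the start (-49 to -45), and no full CRE, and neither Nrip1 window held any of the 6 motifs. The Tfam window held an ETS motif at -47 to -41. The Gabpa window held an ETS motif at -93 to -87, an NRF1 motif at -8 to -1 and a YY1 motif at -67 to -60. That was the only YY1 motif in the windows of the 9 members searched. A match is a run of letters and not a measured binding site, and a window without one says nothing of the factor.

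Ppargc1a and Nrip1 fell in YY1aKO fat, and no member rose. All 5 probe sets of Ppargc1a and both probe sets of Nrip1 were lower at a limma adjusted p under 0.05, which made 7 lower, 0 higher and 12 not past the threshold out of 19. Among all 22626 probe sets tested, 3.66% were lower and 6.54% higher, 10.2% in all, against 36.8% of the members' probe sets. Because probe sets of 1 gene share its RNA, the 7 calls stand for 2 of 10 genes. Of 12393 genes, each counted by its brightest probe set, 4.04% were lower and 11% were called in all. The median log2 difference, YY1aKO minus control, was -0.35 over the 19 probe sets, which count Ppargc1a 5 times, and 0.046 over all probe sets. With each gene counted by its brightest probe set, it was -0.24 over the 10 members and 0.038 over all genes. The values of YY1aKO and control did not overlap for 11 of the 19, 8 lower and 3 higher, against 37% of all probe sets (14.8% lower and 22.2% higher).

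Control 2 stood apart from the other 5 arrays, with which it correlated at 0.928 to 0.955 over all probe sets, while the others correlated with each other at 0.970 to 0.996 (Pearson, across probe sets, which are not independent replicates). The summed intensity of 10 measured epididymis genes was 300.1 to 493 in YY1aKO, and in the controls it was 136942 in control 2, 661 in control 1 and 3499 in control 3. The adipocyte markers were measured at high intensity on every array, with sums over 10 genes of 137151 to 142070 in YY1aKO and 109175 to 162046 in controls. None of the 10 passed the test with all arrays. In control 2 they lay lower than the mean of the other controls by a median of 1.01 on the log2 scale (-1.01). Without control 2, 9 of the 19 member probe sets were lower and 0 higher, against 24.4% of all probe sets called (10.6% lower). These 9 stand for 4 of the 10 members, against 26.1% of all genes called by their brightest probe set (11.5% lower). Leaving out other arrays took calls away. Without control 1, 6 member probe sets were lower, against 10.2% of all probe sets called. The number of lower member probe sets was 4 without control 3 and 3 without YY1aKO 1. The share of all probe sets called in those fits is not given here. Without YY1aKO 2 or YY1aKO 3 the number was 0. In these last fits limma called 18 and 28 of all probe sets (0.0796% and 0.124%). There 7 and 9 members' probe sets had an unadjusted limma p under 0.05, for which the share of all probe sets is not given here. With all arrays, 6257 of 22626 probe sets and 9 of the members' 19 had such a p. With control 2 left out together with any further array, 8 to 10 member probe sets were lower (14% to 21.9% of all probe sets called). As for the deletion itself, 3 of the 4 probe sets of Yy1 fell, the brightest to 373, 323 and 315 in YY1aKO, against 1785, 1846 and 1596 in control (log2 difference -2.37 ± 0.11, SE).

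Ppargc1a encodes PGC-1α, the coactivator through which cold raises mitochondrial and thermogenic genes. Its brightest probe set (1460336_at) read 22.3, 15.3 and 35.0 in YY1aKO and 163, 134 and 242 in control. Every YY1aKO array lay below every control array, and the highest YY1aKO reading was far below the lowest control reading. The log2 difference was -2.93 ± 0.36 (SE, n = 3 per group, 95% interval -3.81 to -2.06), which is 7.65-fold lower (limma adjusted p = 0.012). Without control 2 it was -3.12 (adjusted p = 0.0034). The call ended without control 3 (-2.70, adjusted p = 0.053) and without each single YY1aKO array (adjusted p = 0.062 to 0.066), while the difference stayed between -3.24 and -2.64.

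The other 4 probe sets of Ppargc1a fell as well. Probe set 1434099_at read 10.4, 8.98 and 10.1 in YY1aKO and 39.3, 44.5 and 55.4 in control (log2 difference -2.23 ± 0.15, adjusted p = 0.0051). Probe set 1434100_x_at, made from the same source sequence and so not separate evidence, read 15.2, 9.68 and 15.0 in YY1aKO and 52.4, 51.2 and 65.6 in control (-2.11 ± 0.21). Probe set 1456395_at read 27.9, 21.3 and 33.6 in YY1aKO and 97.1, 76.0 and 102 in control (-1.75 ± 0.20). In none of these sets did the groups overlap. Probe set 1437751_at came closest, with 13.0, 12.5 and 17.7 in YY1aKO and 45.5, 24.2 and 50.5 in control, where the low control value was that of control 2 (-1.42 ± 0.31, adjusted p = 0.042). The readings in YY1aKO were near the bottom of the arrays, whose lowest values were 6.09 to 6.26 and whose lower quartiles were 33.9 to 35.6. No detection calls were used, the share of background in such readings is unknown, and the fold size of a set that reads this low is uncertain. With an offset of 16 added to every intensity the difference of the brightest set was -2.28 (limma adjusted p = 0.011), whereas 1437751_at had -0.85 and lost its call (adjusted p = 0.057), which left 6 probe sets of the members called.

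**Figure D1:**
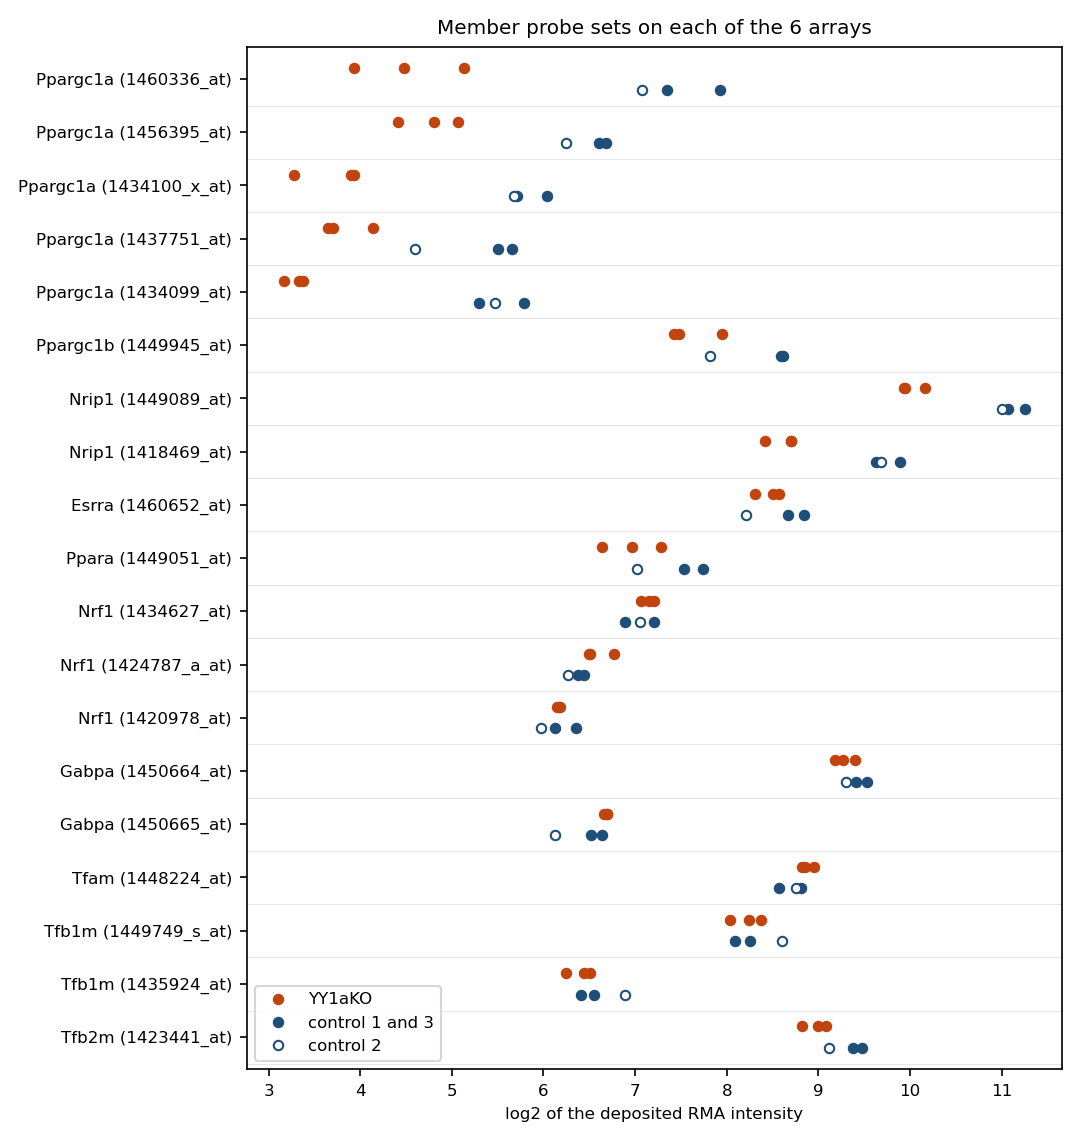
Log2 of the deposited intensity (horizontal axis) for the 19 member probe sets (rows), with 1 point per array, YY1aKO above control in each row and control 2 as an open point. The YY1aKO and control points are apart in all 5 Ppargc1a rows and both Nrip1 rows, while in the Ppargc1b row control 2, at 225, lies among the YY1aKO arrays, at 172 to 246.

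Ppargc1b encodes PGC-1β, the related coactivator that is less responsive to cold and supports basal mitochondrial gene expression. Its only probe set read 178, 172 and 246 in YY1aKO and 392, 225 and 387 in control. The groups overlapped through control 2, which was lower than YY1aKO 3. The log2 difference was -0.73 ± 0.26 (95% interval -1.37 to -0.080) and did not pass (limma adjusted p = 0.14, unadjusted p = 0.033). Without control 2 it was -0.99 ± 0.17, past the threshold (adjusted p = 0.010), and it passed in each of 5 fits that left out control 2 and 1 further array (adjusted p = 0.0096 to 0.038). The log2 ratio of Ppargc1a to Ppargc1b on each array was -3.00, -3.50 and -2.81 in YY1aKO and -1.26, -0.74 and -0.67 in control, so the groups did not overlap. The ratio differed by -2.21, more on the Ppargc1a side, with an exact two-sided permutation p of 0.1, the smallest that 3 against 3 arrays allow.

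Nrip1 encodes RIP140, a corepressor that binds nuclear receptors, and its knockout in mice gives white fat with raised mitochondrial genes. Its brightest probe set read 1150.1, 979 and 985 in YY1aKO and 2148, 2055 and 2440.4 in control. The second, designed on the same transcript record, read 415, 343 and 415 in YY1aKO and 792, 819 and 952 in control. Both sets separated the groups with a wide gap, and control 2 did not stand apart from the other controls in either. The log2 differences were -1.09 ± 0.11 and -1.13 ± 0.12 (2.13-fold and 2.19-fold lower, adjusted p of 0.010 in each). Both passed without control 2 (-1.15 and -1.16, adjusted p = 0.0025 and 0.0035), and both calls ended without YY1aKO 2 or YY1aKO 3, and that of the second set also without YY1aKO 1 (adjusted p up to 0.068). The coactivator Ppargc1a and the corepressor Nrip1, which are known to act on many of the same oxidative genes in opposite directions, were thus both lower on the YY1aKO arrays.

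Among the DNA-binding partners none passed the test. Esrra, the orphan receptor ERRα that works with PGC-1 at its own promoter and at respiratory genes, read 316, 379 and 362 in YY1aKO and 458, 296 and 405 in control. Its groups overlapped, with a log2 difference of -0.11 ± 0.18 (95% interval -0.56 to 0.33, adjusted p = 0.73). Ppara, the fatty-acid-sensing receptor of oxidation genes, read 125, 99.7 and 156 in YY1aKO and 214, 129 and 186 in control. Its groups overlapped through control 2, and the difference was -0.47 ± 0.24 (95% interval -1.06 to 0.13, adjusted p = 0.28), or -0.67 without control 2 (adjusted p = 0.0503).

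Nrf1, the nuclear respiratory factor that binds promoters of respiratory subunits and of Tfam, was measured by 3 probe sets with differences of 0.011 to 0.23. The set 1424787_a_at read 90.9, 90.6 and 109 in YY1aKO and 87.1, 77.1 and 82.8 in control, without overlap, but did not pass (0.23 ± 0.11, adjusted p = 0.24). The widest 95% interval of the 3 sets ran from -0.27 to 0.30 for 1420978_at, whose sign turned without control 2 (-0.078). Gabpa, the DNA-binding subunit of GABP, also known as NRF-2, read 676, 579 and 618 in YY1aKO and 741, 629 and 682 in control on its brighter probe set, with overlap (-0.13 ± 0.11, 95% interval -0.39 to 0.13, adjusted p = 0.48). Its dimmer set differed the other way and did not pass either (0.25 ± 0.15, adjusted p = 0.32, with 103, 101 and 104 in YY1aKO and 99.6, 69.9 and 91.7 in control). The sets of Gabpa therefore gave no common direction.

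The mitochondrial transcription factors differed little. Tfam, which packages mitochondrial DNA and bends its promoters, read 494, 452 and 461 in YY1aKO and 449, 433 and 380.4 in control. The values did not overlap, yet the difference of 0.16 ± 0.10 did not pass (95% interval -0.084 to 0.40, adjusted p = 0.36). Tfb1m, a methyltransferase of mitochondrial ribosomal RNA, read 302, 262 and 331 in YY1aKO and 305, 389 and 271 in control, with overlap (-0.098 ± 0.17, adjusted p = 0.75, or 0.046 without control 2). Its other set gave -0.22 ± 0.15 (adjusted p = 0.41).

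Tfb2m, which helps the mitochondrial RNA polymerase to open the promoter, read 511, 451 and 543 in YY1aKO and 712, 553 and 663 in control. The highest YY1aKO value lay just under the lowest control value, that of control 2. The log2 difference was -0.35 ± 0.13 (1.28-fold lower, 95% interval -0.68 to -0.033) and did not pass with all arrays (adjusted p = 0.15). Without control 2 it was -0.46 ± 0.11 and passed (adjusted p = 0.028), but it passed in only 1 of the 5 fits that left out control 2 and 1 further array.

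**Figure D2:**
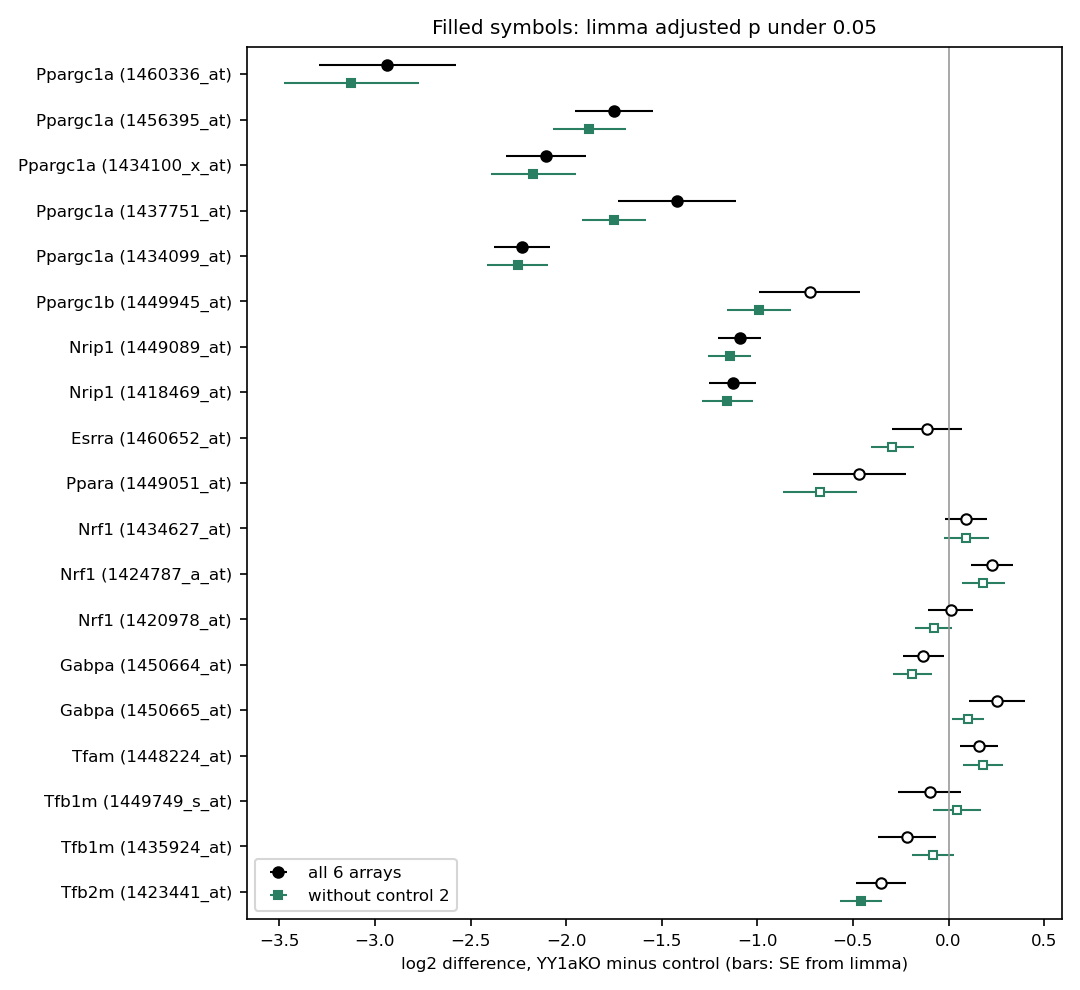
Log2 difference, YY1aKO minus control (horizontal axis, bars are the SE from limma), of the 19 member probe sets with all 6 arrays (black circles) and without control 2 (green squares), filled where the limma adjusted p was under 0.05. Ppargc1a at -1.42 to -2.93 and Nrip1 at -1.09 and -1.13 are filled in both fits, and Ppargc1b and Tfb2m are filled only without control 2.

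The pathway around the members was described with 5 gene lists, with 1 probe set per gene, the brightest. Over 12393 genes counted this way, 6.92% were higher and 4.04% lower, 11% in all, and the median log2 difference was 0.038. Without control 2, 26.1% passed (14.5% higher and 11.5% lower). Of 34 measured partners and modifiers of PGC-1 proteins, 3 rose, none fell and 31 did not pass, with a median of 0.040. Med1, the Mediator subunit that nuclear receptors contact, read 842, 821 and 803 in YY1aKO and 592, 486 and 639 in control (0.53 ± 0.12, adjusted p = 0.049). Its call ended under 14 alternatives, among them quantile normalization and the mean of its probe sets (0.24, limma adjusted p = 0.23). The calls of Esrrb, an ERR relative (0.41 ± 0.083, 27.8 to 30.1 in YY1aKO and 21.4 to 23.0 in control), and Ncoa2, a nuclear receptor coactivator (0.45 ± 0.092, 20.1 to 22.3 in YY1aKO and 14.3 to 15.9 in control), rest on readings near the bottom of the arrays. That of Esrrb also ended with the mean of its probe sets (0.25, limma adjusted p = 0.11). Without control 2, 6 partners were higher and 3 lower, among them Foxo1, an insulin-regulated factor that PGC-1α coactivates, with 770.1, 793 and 799 in YY1aKO and 1319, 619 and 1220 in control (named after its values were seen).

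Of 10 measured corepressors besides Nrip1 none passed in limma (median -0.015). An unadjusted p under 0.05 was found for 2 of the 10, a smaller share than the 6257 of all 22626 probe sets. These 2 genes were Tle3, a corepressor and coregulator of PPARγ in adipocytes (-0.49 ± 0.15, adjusted p = 0.094), and Lcor, a ligand-dependent corepressor (-0.26 ± 0.089, adjusted p = 0.13). Without control 2, Tle3 passed (-0.62, adjusted p = 0.015).

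In the machinery that copies, transcribes and matures mitochondrial nucleic acids, 3 of 25 measured genes rose, none fell and 22 did not pass, with a median of 0.18. Fastkd2, a mitochondrial RNA-binding protein needed for the large ribosomal RNA, read 744, 736 and 866 in YY1aKO and 244, 264 and 235 in control. Its groups were far apart on every array (1.66 ± 0.10, adjusted p = 0.0047). Lonp1, the matrix protease that degrades TFAM, read 1067, 1059 and 1205 in YY1aKO and 698, 456 and 587 in control (0.96 ± 0.17, adjusted p = 0.026). Elac2, which trims mitochondrial transfer RNAs, had 0.67 ± 0.15 (adjusted p = 0.046), a call that ended with the mean of its probe sets and with an intensity trend. Polrmt, the mitochondrial RNA polymerase that TFAM and TFB2M recruit, read 303, 290.3 and 346 in YY1aKO and 329, 299 and 280 in control (0.050 ± 0.11, adjusted p = 0.81, named after its values were seen). Without control 2, 4 genes of this list were higher and none lower.

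Among 30 measured genes that PGC-1 and ERR proteins are known to activate, 1 rose, 1 fell and 28 did not pass, with a median of 0.15. Sirt3, the mitochondrial deacetylase whose gene PGC-1α and ERRα induce, read 173, 172 and 188 in YY1aKO and 305, 243 and 338 in control (-0.72 ± 0.14, adjusted p = 0.031). Cox6a2, a subunit of cytochrome oxidase found in heart and skeletal muscle and in brown fat, read 176, 135 and 199.9 in YY1aKO and 90.0, 88.5 and 105 in control (0.84 ± 0.17, adjusted p = 0.034). Most of the list thus showed no call beside the fall of Ppargc1a with all arrays. Leaving out control 2 gave 2 higher and 9 lower of 30 and a median of -0.016. In control 2 this list lay lower than the mean of the other controls by a median of 0.65 on the log2 scale (-0.65), and the part of that array's tissue makeup in the counts was not tested.

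Of 22 measured PPARα target genes 2 rose, 3 fell and 17 did not pass, with a median of 0.11. Vnn1, a pantetheinase induced by PPARα, read 88.8, 58.2 and 49.7 in YY1aKO and 624, 290.3 and 394 in control (-2.71 ± 0.34, adjusted p = 0.013). Plin5, the lipid-droplet protein that links droplets to mitochondria, had -1.35 ± 0.25 (adjusted p = 0.029). On the other side Fgf21, a secreted hormone, had 1.99 ± 0.39 (adjusted p = 0.032) and Acaa2, a thiolase of fatty acid oxidation, 0.68 ± 0.12 (adjusted p = 0.027). Members of 1 target list thus passed in both directions. Leaving out control 2 gave 3 higher and 7 lower and a median of 0.030. Outside these target lists, 3 of 6 measured brown and beige fat markers were higher, 0 lower and 3 did not pass. The median was 1.63, and 6.92% of all genes were higher. Cidea read 579.9, 675.7 and 845.4 in YY1aKO and 199.8, 63.8 and 99.4 in control (2.68 ± 0.42, limma adjusted p = 0.019). Cox7a1 had 1.05 ± 0.18 (adjusted p = 0.023). The other was Ucp1, a thermogenic gene that PGC-1α is known to activate. Ucp1 read 118, 67.6 and 306 in YY1aKO and 24.7, 23.8 and 25.5 in control (2.45 ± 0.53, adjusted p = 0.041), higher on the same arrays on which Ppargc1a was lower. Its control readings lay below the lower quartiles of the arrays (33.9 to 35.6), so the size of its fold is uncertain. With the offset of 16 Ucp1 had 1.91 and lost its call (limma adjusted p = 0.063). Of the genes of these lists named as past the threshold, Fastkd2 lost its call without YY1aKO 2. The others, and Ucp1, lost theirs without control 3 and without each single YY1aKO array, and Esrrb, Ncoa2, Med1, Sirt3, Cox6a2, Fgf21 and Ucp1 also without control 1.

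**Figure D3:**
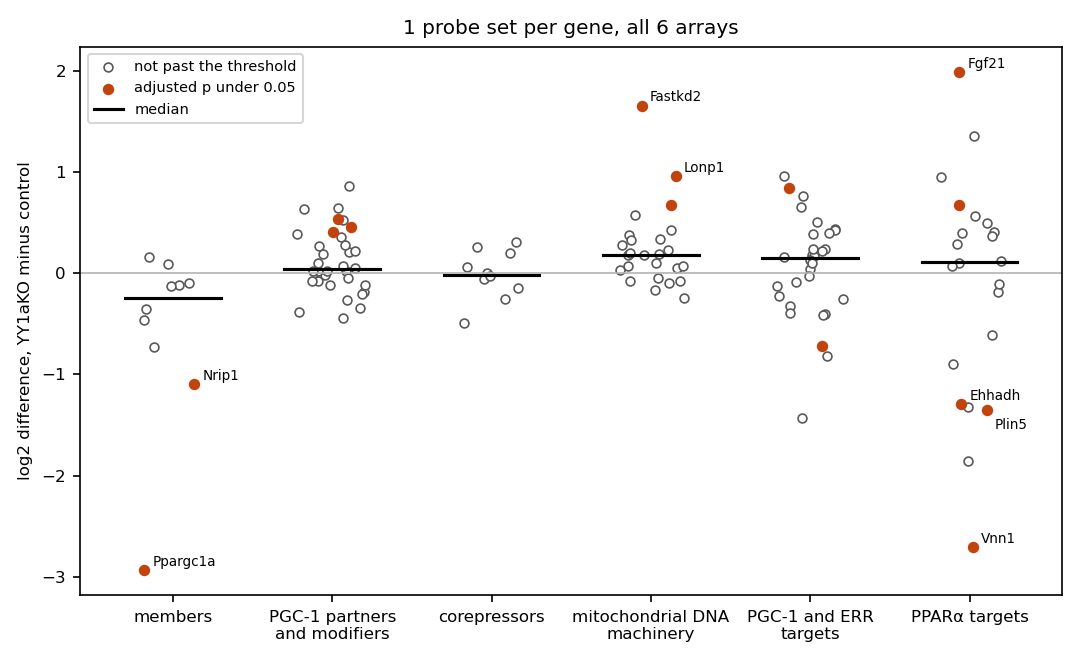
Log2 difference, YY1aKO minus control (vertical axis), of each measured gene by its brightest probe set, in the members and 5 lists of related genes, with medians as bars and genes past an adjusted p of 0.05 in limma filled. Ppargc1a (-2.93) and Nrip1 (-1.09) are the filled members, while the list medians lie between -0.015 and 0.18.

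Profiles over the 6 arrays were compared by the root mean square difference between log2 values centred on each probe set's mean. Those most like Ppargc1a belonged to Prodh, the mitochondrial proline dehydrogenase (0.20 log2 units), Ndrg2 (0.30) and Agt, angiotensinogen (0.37). Prodh read 98.5, 96.5 and 145 in YY1aKO and 748, 632 and 1033 in control. Those most like Nrip1 belonged to Anp32a (0.056), Rras2 (0.071) and As3mt (0.089). Anp32a read 631, 609 and 579.7 in YY1aKO and 1227, 1182 and 1384 in control. These are nearest neighbours on the 6 arrays that define them and were not tested.

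Markers of other cell types were set beside these values. Of 9 skeletal muscle genes 2 were higher in YY1aKO, Acta1 and Tnnc2, and the sum over the list was 1661 to 2381 in YY1aKO and 390.2 to 491 in control. Acta1 alone read 1107 to 1945 in YY1aKO and 110 to 178 in control. The other 7, Ckm, Mylpf, Myh1, Myh4, Tnnt3, Pvalb and Atp2a1, did not pass with all arrays and had log2 differences of -0.11 to 0.37, and the median of the list was 0.19. Of these, Mylpf, a myosin light chain of fast muscle, read 69.4 to 74.5 in YY1aKO and 51.1 to 61.1 in control (limma adjusted p = 0.072), and Myh4 had 0.27 (adjusted p = 0.093), and in neither did the groups overlap. None of the 8 macrophage, 8 endothelial, 7 progenitor, 5 mesothelial or 5 lymphocyte genes measured passed, and 1 of 5 smooth muscle genes, Myh11, was lower (-0.91 ± 0.12). Sums over the lists were 13165 to 15757 in YY1aKO and 9082 to 15846 in control for macrophage genes, and 3388 to 4165 in YY1aKO and 1989 to 5897 in control for endothelial genes. Without control 2, 1 adipocyte gene was lower, Retn (-1.67, limma adjusted p = 0.036), as were 3 endothelial, 2 progenitor, 2 mesothelial and 3 smooth muscle genes. In that fit 3 brown and beige fat genes and 3 skeletal muscle genes were higher, Mylpf among the latter (adjusted p = 0.022). Over all genes 11.5% were lower and 14.5% higher without control 2. The part of such cells in the fall of Ppargc1a and Nrip1 was not tested.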

How the data were processed

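Total RNA, extracted with Trizol and labelled with biotin per the labels' protocols, was measured on 1-colour Affymetrix arrays. The authors deposited an intensity for every probe set on every array. The submitters' processing notes name RMA, whose version and settings are not given in the sources used here. The intensities are on a linear scale, although RMA usually yields log2 values, and the step back is not described. RMA makes the arrays' distributions alike, so a shift shared by most genes would not show. Median intensities were 134 to 140.2.

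Of 22690 probe sets, 64 array controls were left out. The platform annotation gave 1 gene symbol for 20380, several for 691 and none for 1555. The log2 of all 22626 was tested with limma 3.58.1 in R 4.3.3 (lmFit, eBayes, 2 groups, two-sided, no filter), with Benjamini-Hochberg adjustment over all of them and a threshold of 0.05. The limma fit, and no other step, was also run on simulated data with planted changes. Groups came from the titles. Members, lists and tests were chosen with earlier results of these data known. Named genes are all member probe sets, Yy1, up to 4 called genes per list by smallest p (up to 2 per direction, or, where none passed, the 2 lowest by p), and the 3 profiles most like Ppargc1a and Nrip1. Exceptions are named as such, as are marker genes, Ucp1 among them. Same-numbered samples did not deviate together (correlations of -0.096, -0.078 and -0.10), and no pairing was used. The deviations were from group means, which in the controls include the outlying control 2. These correlations therefore cannot settle whether the numbers pair the samples.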

Additional observations from a re-analysis of the deposited data

How the results depend on the processing

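Of 23 alternatives, 18 were set beforehand and 5, which left out control 2 with 1 further array, were chosen after seeing the data (leaving out a control then left 1 control, assumed to vary like the other arrays). Ppargc1a and Nrip1 stayed lower in every alternative in which their probe sets were measured. The main counts were 2306 probe sets and 7 members' probe sets. With 1 probe set per gene they were 1344 and 2 of 10, with the mean of a gene's probe sets 1359 and 2, both with fewer rows by construction. The brightest 60% and 40% of probe sets held 2 called members' sets each (of 13 and 8), since the dim Ppargc1a sets were removed. These were 15.4% and 25% of the members' sets kept, near the 18.9% and 22.6% called among all probe sets kept. Array weights, lowest for control 2 (0.12), gave 9395 and 11 (Tfam higher at 0.28, adjusted p = 0.021), an adjusted p under 0.01 gave 170 and 3, and the replicate block gave 16 and 1, in samples whose numbers were not found to pair them. Each array left out in turn gave 18 to 5532 and 0 to 9. Without control 2 and control 1, control 3 or YY1aKO 1 the probe sets called were 4965, 3628 and 3769. The cause of these moves was not tested.

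Signs turned only for probe sets that did not pass in either fit. Gabpa had 0.061 with the mean of its probe sets, and Tfb1m 0.10 with array weights. Over the fits that left out 1 array, or control 2 and 1 further array, Esrra ran from -0.38 to 0.021, Tfb1m (1449749_s_at) from -0.21 to 0.14, Nrf1 from -0.19 to 0.11 (1420978_at) and from -0.065 to 0.25 (1434627_at), and the dimmest Yy1 set from -0.12 to 0.0025. Of 400 values of members' probe sets under alternatives, 340 kept direction and call, 33 lost and 13 gained a call, and 14 turned.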
